A study of Equus caballus with 18 samples.

Results

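Haem and iron handling in joint fluid was followed through 10 genes: CD163, HMOX1, BLVRB, SLC48A1, FLVCR1, FLVCR2, TFRC, SLC11A1, ACO1 and IREB2. They are 10 of the 16661 genes that an equine Affymetrix array of 30559 probe sets measured with a probe set carrying a single symbol, and each has 1 such probe set. They were chosen by name, with their earlier results at 24 h and on day 7 in view, so their levels and changes against baseline are given as a description, with no p. Where the fit across all probe sets passed its threshold for them, they are only counted, beside the share of all genes that passed. The fluid came from 1 carpal joint, the right antebrachiocarpal joint, of 6 exercised adult Thoroughbred horses from a study of animals 4 to 8 years old. The baseline group was sampled before any drug, the 24 h group 24 h after 8 mg of isoflupredone acetate, a synthetic corticosteroid, had been placed in that joint, and the day 7 group 7 days after it. The same horses gave all 3 groups, and they are numbered 1 to 6. Saline joints were not analysed here; drug, injection, repeated sampling and, by day 7, renewed exercise cannot be told apart.

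Free haemoglobin and haem are toxic, and macrophages clear them. The receptor CD163 takes up haemoglobin bound to haptoglobin, haem leaves the phagolysosome through the transporter encoded by SLC48A1, and haem oxygenase 1, the product of HMOX1, opens the ring to release iron, carbon monoxide and biliverdin. Iron is then stored in ferritin or exported, and the proteins encoded by ACO1 and IREB2 bind messenger RNAs of iron genes when iron is scarce. Glucocorticoids are known to induce CD163 in monocytes and macrophages, and HMOX1 is known to respond to haem and oxidants. Roles are given as known from human and mouse.

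Expression is given in log2 units, 1 value for each probe set and array. The columns deposited for horses 1 and 2 on day 7 were identical for 99.3% of probe sets, against 2.05% for the next closest pair, so they were averaged and counted as 1 array, which leaves 6 arrays at baseline, 6 at 24 h and 5 on day 7. The SD over all probe sets of an array ran from 1.22 to 1.50 at baseline, from 1.40 to 1.72 at 24 h and from 1.53 to 1.82 on day 7. The baseline and day 7 ranges did not overlap. A day 7 change fitted with the array SD as a covariate thus compares times at a spread they do not share. Changes against baseline ran with brightness: over the brightest of 4 equal classes of probe sets by mean value the median change was 0.35 at 24 h and 0.51 on day 7, and over the dimmest it was -0.365 and -0.61. Of the 10 genes 8 are in the brightest class, and FLVCR1 and TFRC in the next. The classes use the mean over all arrays, the later ones included, so a gene's own rise lifts its class. CD163 had the lowest baseline mean of the 10, 3.64, beside medians of the baseline arrays from 3.91 to 4.01. At baseline the means of 16 macrophage markers ran from 3.70 for MSR1 to 9.15 for C1QB.

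CD163 was far higher after the injection in every horse. At baseline horses 1 to 6 had 3.15, 3.84, 3.34, 4.18, 4.04 and 3.31. At 24 h they had 6.68, 7.71, 7.57, 9.54, 9.23 and 9.78. On day 7 the array shared by horses 1 and 2 had 6.60, and horses 3 to 6 had 7.57, 8.39, 7.57 and 9.41. Each array after the injection lay above each baseline array, and horses 4, 5 and 6 were the highest at 24 h. The fitted change, estimated within horses, was 4.78 ± 0.37 at 24 h against baseline (log2, SE, 27.4-fold), the 1st in size among rises of the 16661 genes. On day 7 against baseline it was 4.11 ± 0.39 (17.3-fold), ranked 3 among rises. From 24 h the level did not go up further in any horse: on day 7 it was below 24 h in 4 of 5 comparisons and equal in horse 3. In fluid taken as a whole, more cells with a transcript and more of it per cell cannot be told apart, for CD163 and for all genes below.

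HMOX1 was higher in all horses too, but horse 1 lagged. Its baseline values were close together, at 5.58, 5.91, 6.06, 6.38, 6.02 and 5.56 in horses 1 to 6. At 24 h the same horses had 6.50, 8.96, 7.73, 10.25, 9.82 and 11.15. On day 7 the shared array of horses 1 and 2 had 9.04, and horses 3 to 6 had 9.30, 10.98, 10.74 and 10.33. The 24 h and baseline arrays did not overlap, although horse 1 at 24 h stood only just above the highest baseline array, and by day 7 the arrays lay within a narrower range. HMOX1 averaged 5.92 ± 0.31 at baseline (SD, n = 6), 9.07 ± 1.71 at 24 h (SD, n = 6) and 10.08 ± 0.87 on day 7 (SD, n = 5). The fitted change was 3.15 ± 0.45 at 24 h (8.88-fold, ranked 5 among rises) and 4.00 ± 0.47 on day 7 (16.0-fold, ranked 4). At 24 h, horses 4, 5 and 6 had the 3 highest values of CD163, HMOX1, BLVRB and ACO1, while horse 1 had the lowest of CD163, HMOX1 and FLVCR2.

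**Figure D1:**
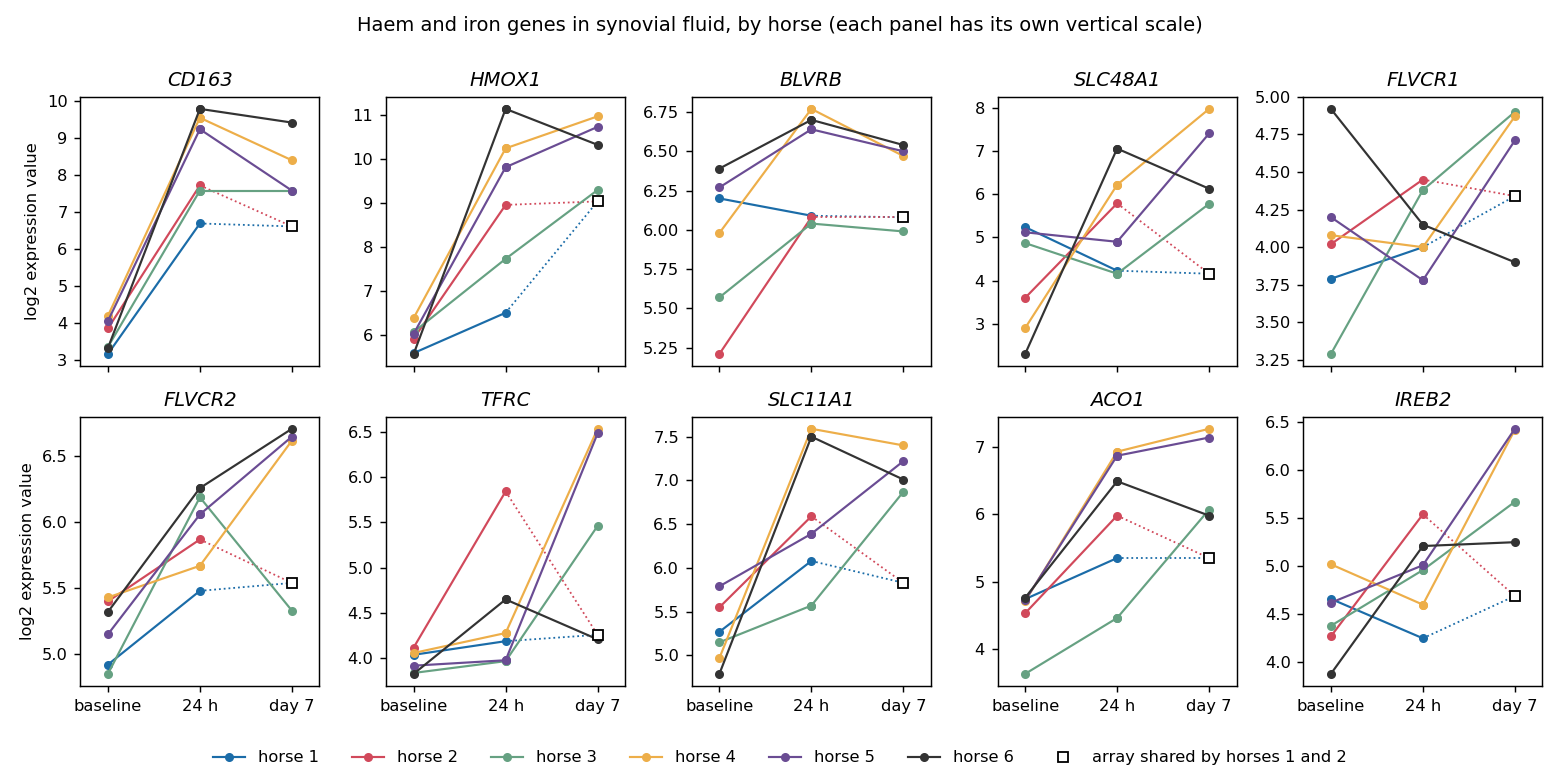
Log2 expression value (vertical axis, a separate scale in each panel) of the 10 genes at baseline, 24 h and day 7, with 1 line per horse; the open square is the day 7 array shared by horses 1 and 2, joined to them by dotted lines. CD163 and HMOX1 are above all baseline arrays at both later times, while TFRC on day 7 is high in horses 3, 4 and 5 and near its baseline in the other 2 arrays.

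Downstream of haem oxygenase, biliverdin is reduced to bilirubin. BLVRB, which encodes biliverdin reductase B, an enzyme that also reduces flavins, ranged from 5.21 to 6.39 at baseline (median 6.09), from 6.04 to 6.77 at 24 h (median 6.36) and from 5.99 to 6.54 on day 7 (median 6.47). The groups overlapped at both times. Its change was 0.45 ± 0.18 at 24 h and 0.33 ± 0.19 on day 7 (log2, SE), and it turned to -0.21 on day 7 after quantile normalization. BLVRA, which encodes the reductase of the main adult form of biliverdin, rose: it had 5.03, 6.21, 6.07, 6.88, 5.41 and 6.63 at 24 h in horses 1 to 6, against 4.72, 3.30, 3.95, 4.26, 4.03 and 3.15 at baseline. The 24 h and baseline values of BLVRA did not overlap, and its change was 2.14 ± 0.35 (SE, limma adjusted p = 0.0221, higher in 6 of 6 horses). On day 7 it was 1.96 ± 0.37 (adjusted p = 0.00676, higher in 5 of 5). HMOX2, the constitutive haem oxygenase, changed by 0.48 ± 0.35 at 24 h (adjusted p = 0.468) and 0.73 ± 0.37 on day 7 (adjusted p = 0.142). Whether BLVRA differed from BLVRB, or HMOX1 from HMOX2, in its change was not tested.

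The haem transporters moved unevenly. SLC48A1 varied widely before any drug: horses 1, 3 and 5 had 5.24, 4.87 and 5.12, while horses 2, 4 and 6 had 3.60, 2.90 and 2.30. At 24 h horses 1 to 6 had 4.23, 5.79, 4.16, 6.22, 4.90 and 7.06. Relative to baseline the gene was lower at 24 h in horses 1, 3 and 5 (by -1.01, -0.71 and -0.22) and higher in horses 2, 4 and 6 (by 2.19, 3.32 and 4.76). On day 7 the shared array had 4.16 and horses 3 to 6 had 5.78, 7.98, 7.41 and 6.13. Both later groups overlapped the baseline, and the change of 1.39 ± 0.72 at 24 h and 2.21 ± 0.77 on day 7 has the largest SE of the 10 genes. Leaving out 1 horse or array moved the 24 h change between 0.71 and 1.98. With the array SD as a covariate the change was -0.66 ± 0.72 at 24 h and -1.31 ± 1.03 on day 7 (SE). FLVCR2, which encodes a transporter linked to haem and choline, ranged from 4.85 to 5.43 at baseline (median 5.24), from 5.48 to 6.26 at 24 h (median 5.96) and from 5.33 to 6.71 on day 7 (median 6.62). It was higher in 6 of 6 horses at 24 h, without overlap, and in 5 of 5 comparisons on day 7, where horse 3 fell within the baseline range. Its relative FLVCR1, described as a haem exporter, ranged from 3.29 to 4.92 at baseline (median 4.05), from 3.78 to 4.45 at 24 h (median 4.08) and from 3.90 to 4.90 on day 7 (median 4.71). FLVCR1 overlapped the baseline at both times, with a change of 0.08 ± 0.28 at 24 h and 0.48 ± 0.30 on day 7, against 0.74 ± 0.24 and 0.95 ± 0.25 for FLVCR2.

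Of the iron importers, TFRC, the transferrin receptor, was tightly grouped at baseline, at 4.04, 4.12, 3.84, 4.06, 3.92 and 3.83 in horses 1 to 6. At 24 h the same horses had 4.19, 5.84, 3.97, 4.28, 3.98 and 4.65. On day 7 the shared array had 4.26 and horses 3 to 6 had 5.46, 6.53, 6.48 and 4.21. Horse 2 was thus high at 24 h, and horses 3, 4 and 5 on day 7, while the other later arrays were within 0.82 of the same horse's baseline. The arrays with TFRC above 5 include those with the widest spread of values: SD 1.72 for horse 2 at 24 h, and 1.70, 1.82 and 1.80 for horses 3, 4 and 5 on day 7. The change of TFRC was 0.52 ± 0.41 at 24 h and 1.43 ± 0.43 on day 7. With the array SD as a covariate it was -0.50 ± 0.45 and -0.33 ± 0.65. SLC11A1, which encodes the metal transporter NRAMP1 of the phagosome membrane, was higher in 6 of 6 horses at 24 h and in 5 of 5 comparisons on day 7. It had 6.08, 6.59, 5.57, 7.59, 6.39 and 7.50 at 24 h in horses 1 to 6, against 5.27, 5.55, 5.15, 4.97, 5.79 and 4.79 at baseline, and horse 3 overlapped. On day 7 it ranged from 5.83 to 7.40, just above the highest baseline array at 5.79. Its change was 1.37 ± 0.33 at 24 h and 1.56 ± 0.35 on day 7.

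ACO1 and IREB2 encode the iron regulatory proteins 1 and 2, which bind iron-responsive elements in messenger RNAs; the ACO1 protein is a cytosolic aconitase when it holds an iron-sulphur cluster. ACO1 had 5.35, 5.98, 4.46, 6.93, 6.87 and 6.49 at 24 h in horses 1 to 6, against 4.74, 4.53, 3.63, 4.71, 4.72 and 4.76 at baseline. Each horse was higher at 24 h, and the groups overlapped through horse 3, which was the lowest at both times. On day 7 the shared array had 5.35 and horses 3 to 6 had 6.07, 7.27, 7.14 and 5.98, all above the baseline arrays. The change was 1.50 ± 0.30 at 24 h and 1.79 ± 0.32 on day 7. IREB2 had 4.25, 5.54, 4.96, 4.60, 5.01 and 5.21 at 24 h, against 4.66, 4.27, 4.38, 5.02, 4.62 and 3.88 at baseline, and was lower in horses 1 and 4. On day 7 the shared array had 4.69 and horses 3 to 6 had 5.67, 6.42, 6.43 and 5.25, partly within the baseline range. Its change was 0.46 ± 0.30 at 24 h and 1.18 ± 0.32 on day 7, and -0.43 ± 0.27 and -0.35 ± 0.38 with the array SD as a covariate. Horses 4 and 5 had the highest values of HMOX1, SLC11A1, IREB2, ACO1, TFRC and SLC48A1 on day 7, on the 2 arrays with the widest spread.

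**Figure D2:**
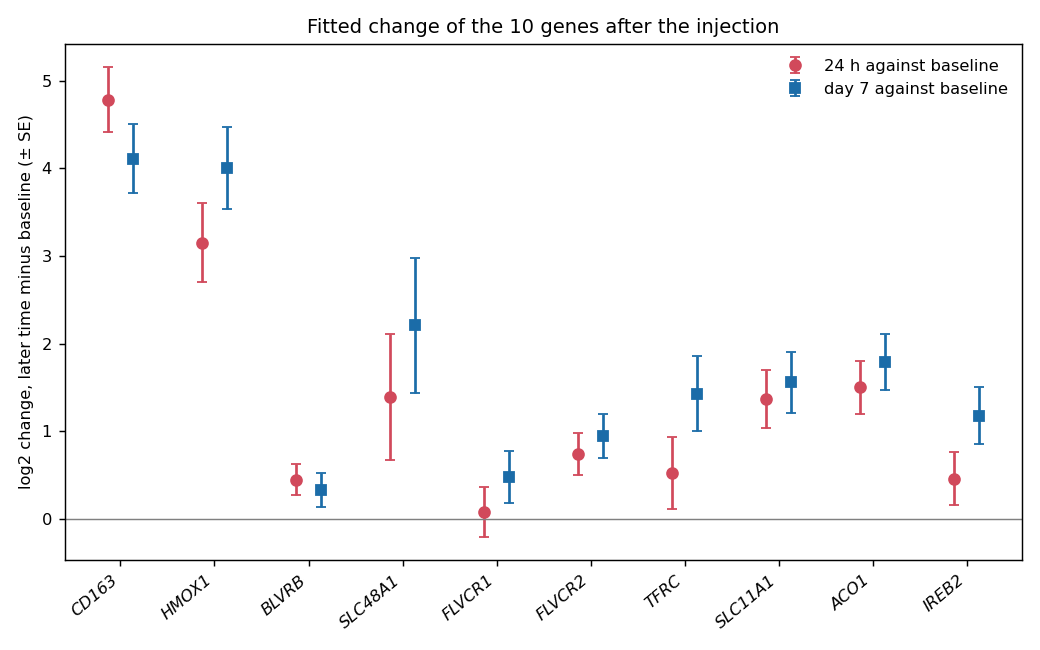
Fitted log2 change (vertical axis, later time minus baseline, bars ± SE) of the 10 genes at 24 h (circles) and on day 7 (squares). CD163 and HMOX1 stand at 3.15 or more at both times, and the other 8 genes between 0.08 and 2.21.

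Over the 10 genes the median change was 1.06 at 24 h and 1.50 on day 7, beside medians of 0.01 and -0.04 over all 16661 genes and of 0.35 and 0.51 over the brightest class of probe sets, which holds 8 of the 10. limma, with an adjusted p under 0.05 over all probe sets, called 3 of the 10 higher at 24 h (CD163, HMOX1 and ACO1), where it called 1.01% of probe sets and 0.846% of genes in either direction, and 0.72% of genes higher. On day 7 it called 8 of 10 higher, all but BLVRB and FLVCR1, where it called 27.3% of probe sets and 26.5% of genes in either direction, and 18% of genes higher. The genes were chosen with these comparisons known, so nothing is read from the counts. Every 24 h array was above every baseline array for 3 of the 10 genes, CD163, HMOX1 and FLVCR2 (0.462% of all genes, with 0.48% below every baseline array), and every day 7 array for 5, CD163, HMOX1, TFRC, SLC11A1 and ACO1 (5.41% of all genes, with 3.73% below). The count at 24 h fell to 1, CD163, without horse 5 or horse 6. On day 7, leaving out horse 3 or horse 6 gave 5 calls, and leaving out horse 4 or horse 5 gave 4. Leaving out only the day 7 array gave 5 for horse 3 and 4 for horses 4 and 5, and leaving out the baseline array of horse 6 gave 5. The day 7 count was 4 after quantile normalization (CD163, HMOX1, SLC11A1 and ACO1) and 0 with the array SD as a covariate. Over all 30559 probe sets the calls fell as well, from 8343 on day 7 to 2858 after quantile normalization and 0 with the covariate. Without horse 3, 4, 5 or 6 they were 2362, 3953, 1761 and 4520. At 24 h the 310 calls over all probe sets became 5 without horse 5 and 10 without horse 6.

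Day 7 was also set against 24 h. The fit called 0 of the 10 genes and 0 of all 30559 probe sets (0.0%), of which 4032 had an unadjusted p under 0.05. The count over all probe sets became 610 without horse 2, 430 without its 24 h array and 107 without the shared day 7 array. The adjusted p of the 10 genes ran from 0.363 for IREB2 to 0.782 for SLC11A1. CD163 changed by -0.67 ± 0.39 and BLVRB by -0.12 ± 0.19, below 24 h in 4 and in 5 of 5 comparisons. The other 8 genes had changes above 0, up to 0.91 ± 0.43 for TFRC and 0.85 ± 0.47 for HMOX1. The 2 times overlapped in each of the 10 genes, while 0.354% of all genes were higher and 0.396% lower on day 7 without overlap.

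Beside these genes stood 57 others of haem and iron metabolism, in 10 role lists, matched by symbol out of 68 listed. At 24 h limma called 5 of them higher and 0 lower, against 0.72% and 0.126% of all genes. These were BLVRA, POR (the reductase that feeds electrons to haem oxygenase, named because it completes the count), FTL, NCOA4 and NFE2L2. On day 7 it called 20 higher and 3 lower, against 18% and 8.43% of all genes. POR did not pass on day 7 (0.49 ± 0.29, adjusted p = 0.209). The median change of the 57 was 0.20 at 24 h and 0.47 on day 7. The role lists were written with earlier results of these data known in part. Their counts, here and by role below, are therefore a description from which nothing is read.

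Of the storage genes, FTL, the ferritin light chain, had 9.58, 10.56, 9.66, 10.31, 10.54 and 11.01 at 24 h in horses 1 to 6, against 9.52, 8.67, 8.52, 9.15, 8.56 and 7.90 at baseline. Horse 1 stayed within 0.06 of its own baseline, yet the groups did not overlap. Its change was 1.56 ± 0.32 at 24 h (SE, limma adjusted p = 0.0426) and 2.08 ± 0.33 on day 7 (adjusted p = 0.00448); the mean of its probe sets gave 2.04 at 24 h. NCOA4, the receptor that delivers ferritin to the lysosome, rose by 1.59 ± 0.24 at 24 h (adjusted p = 0.0174, higher in 6 of 6 horses) and 2.07 ± 0.26 on day 7 (adjusted p = 0.00195). PCBP1, which loads iron into ferritin, rose by 0.90 ± 0.29 on day 7 (adjusted p = 0.0384), a call kept in 16 of 32 alternatives. Of 4 storage genes 3 rose on day 7 and 2 at 24 h, against 18% and 0.72% of all genes.

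Of 4 iron exporters and ferroxidases 0 rose, at 24 h or on day 7, a count from which nothing is read beside 0.72% and 18% of all genes. SLC40A1, ferroportin, the exporter through which cells release iron, had 3.59, 3.40, 3.91, 3.91, 3.94 and 4.15 at 24 h in horses 1 to 6, against 4.07, 3.20, 3.52, 4.22, 4.01 and 3.97 at baseline. Its groups overlapped, and its probe set is dimmer than most. The change was -0.01 ± 0.19 at 24 h (adjusted p = 0.976) and 0.21 ± 0.21 on day 7 (adjusted p = 0.448); the sign at 24 h depended on the scaling. CP, the ferroxidase ceruloplasmin, fell by 0.54 on day 7 (SE 0.17, adjusted p = 0.0341), a call kept in 14 of 32 alternatives and lost after quantile normalization and median centring. HAMP, the iron hormone hepcidin that closes ferroportin, changed by -0.06 ± 0.30 at 24 h and -0.35 ± 0.31 on day 7 (adjusted p = 0.938 and 0.398). HFE, which binds the transferrin receptor, rose by 1.68 ± 0.30 on day 7 (adjusted p = 0.00594). It was 1 of 5 genes of sensing and the hormone axis, a share near the 18% of all genes called higher.

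On the uptake side, LRP1, the receptor for haem bound to haemopexin, rose on day 7 by 2.51 ± 0.46 (SE, limma adjusted p = 0.00625), with 8.30 in the shared array and 8.44, 9.28, 8.80 and 9.01 in horses 3 to 6, against 5.07 to 7.14 at baseline. At 24 h its change of 1.61 ± 0.44 did not pass (adjusted p = 0.0787). CD163L1, a scavenger receptor of the CD163 family, rose by 1.03 ± 0.30 on day 7 (adjusted p = 0.0255), so 2 of 4 uptake genes passed, against 18% of all genes called higher on day 7. Of 4 haem transport genes 2 also rose: ABCG2, an exporter of porphyrins (1.87 ± 0.37, adjusted p = 0.00777), and HEBP1, a haem-binding protein (1.24 ± 0.31, adjusted p = 0.0165). Of 12 iron import genes 4 rose and 1 fell on day 7, against 18% and 8.43% of all genes. STEAP4 and STEAP3, which reduce iron, rose by 2.16 ± 0.48 and 0.75 ± 0.20, and LCN2, which binds bacterial iron carriers, fell by 0.93 (SE 0.22, adjusted p = 0.013).

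Haem synthesis genes passed at 24 h in 0 of 12 and rose on day 7 in 4 of 12, against 0.72% and 18% of all genes. TMEM14C, which brings the last porphyrin precursors into the mitochondrion, rose by 2.96 ± 0.71 (SE, limma adjusted p = 0.0143), and its change was -1.06 with the array SD as a covariate. The enzymes ALAS1, ALAD and UROD rose by 0.67 ± 0.22, 0.87 ± 0.26 and 0.86 ± 0.26. FECH, the enzyme that inserts iron, changed by 0.35 ± 0.19 (adjusted p = 0.172). LYRM4 was the 1 of 4 iron-sulphur cluster genes that rose (1.15 ± 0.29, adjusted p = 0.0167), a share near that of all genes. Of 5 factors that answer to haem 1 rose at 24 h, against 0.72% of all genes. On day 7, 2 rose and 1 fell, against 18% and 8.43% of all genes. NFE2L2, the activator NRF2 of HMOX1, rose by 1.38 ± 0.28 at 24 h (adjusted p = 0.0431) and 1.66 ± 0.30 on day 7 (adjusted p = 0.00611). BACH1, the repressor that haem removes from HMOX1, rose by 1.38 ± 0.26 on day 7 (adjusted p = 0.00698). At 24 h its change of 1.08 ± 0.25 did not pass (limma adjusted p = 0.0544). SPIC, a factor of iron-recycling macrophages of the spleen, fell by 0.93 on day 7 (SE 0.28, adjusted p = 0.0303), with overlap of the groups. Its probe set is in the dimmest class, whose median change on day 7 was -0.61. CP and LCN2, also called lower on day 7, are in the second dimmest class, whose median change was -0.30.

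The 24 h count of 5 was unsteady, and so was the count over all probe sets. Over all probe sets the 310 calls became 70, 57, 126, 5 and 10 without horses 2 to 6. Without a baseline array alone they became 1257 for horse 1 and 33 to 62 for horses 2, 3, 5 and 6. Of the other haem and iron genes, dropping horse 2 gave 2, horse 3 or 4 gave 1, and horse 5 or 6 gave 0. Dropping a baseline array alone gave 12 for horse 1, 1 for horses 2 and 3, 3 for horse 5 and 0 for horse 6. Dropping a 24 h array alone gave 2 for horse 2, 3 for horses 4 and 5 and 0 for horse 6, and dropping the day 7 array of horse 3, 4 or 6 gave 3. The day 7 count of 23 became 11, 13 or 9 when horse 3, 4 or 5 was dropped, and 14, 13 or 10 when only its day 7 array was. It became 14 or 15 when the baseline array of horse 2 or 5 was dropped, 12 after quantile normalization and 0 with the array SD as a covariate. Over all probe sets the 8343 day 7 calls became 2362, 3953 and 1761 without horse 3, 4 and 5. They became 2858 after quantile normalization and 0 with the covariate. On day 7, CD163, HMOX1, SLC11A1, ACO1, LRP1, BLVRA, ABCG2, NCOA4, FTL, HFE, BACH1 and NFE2L2 kept their call in 31 of 32 alternatives, all but the array SD as a covariate. LCN2, STEAP4, HEBP1, LYRM4, TMEM14C and FLVCR2 kept it in 25 to 30. The other day 7 calls were lost more often: IREB2, STEAP3 and SLC11A2 kept theirs in 22, and CD163L1, UROD and CYBRD1 in 20. TFRC kept its call in 19, SPIC in 19 of 31, ALAS1 and ALAD in 18, PCBP1 in 16, CP in 14 and SLC48A1 in 9. At 24 h CD163 kept it in 32 of 32, HMOX1 in 28, NCOA4 in 25, POR in 23, BLVRA in 20, and ACO1, FTL and NFE2L2 in 10.

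**Figure D3:**
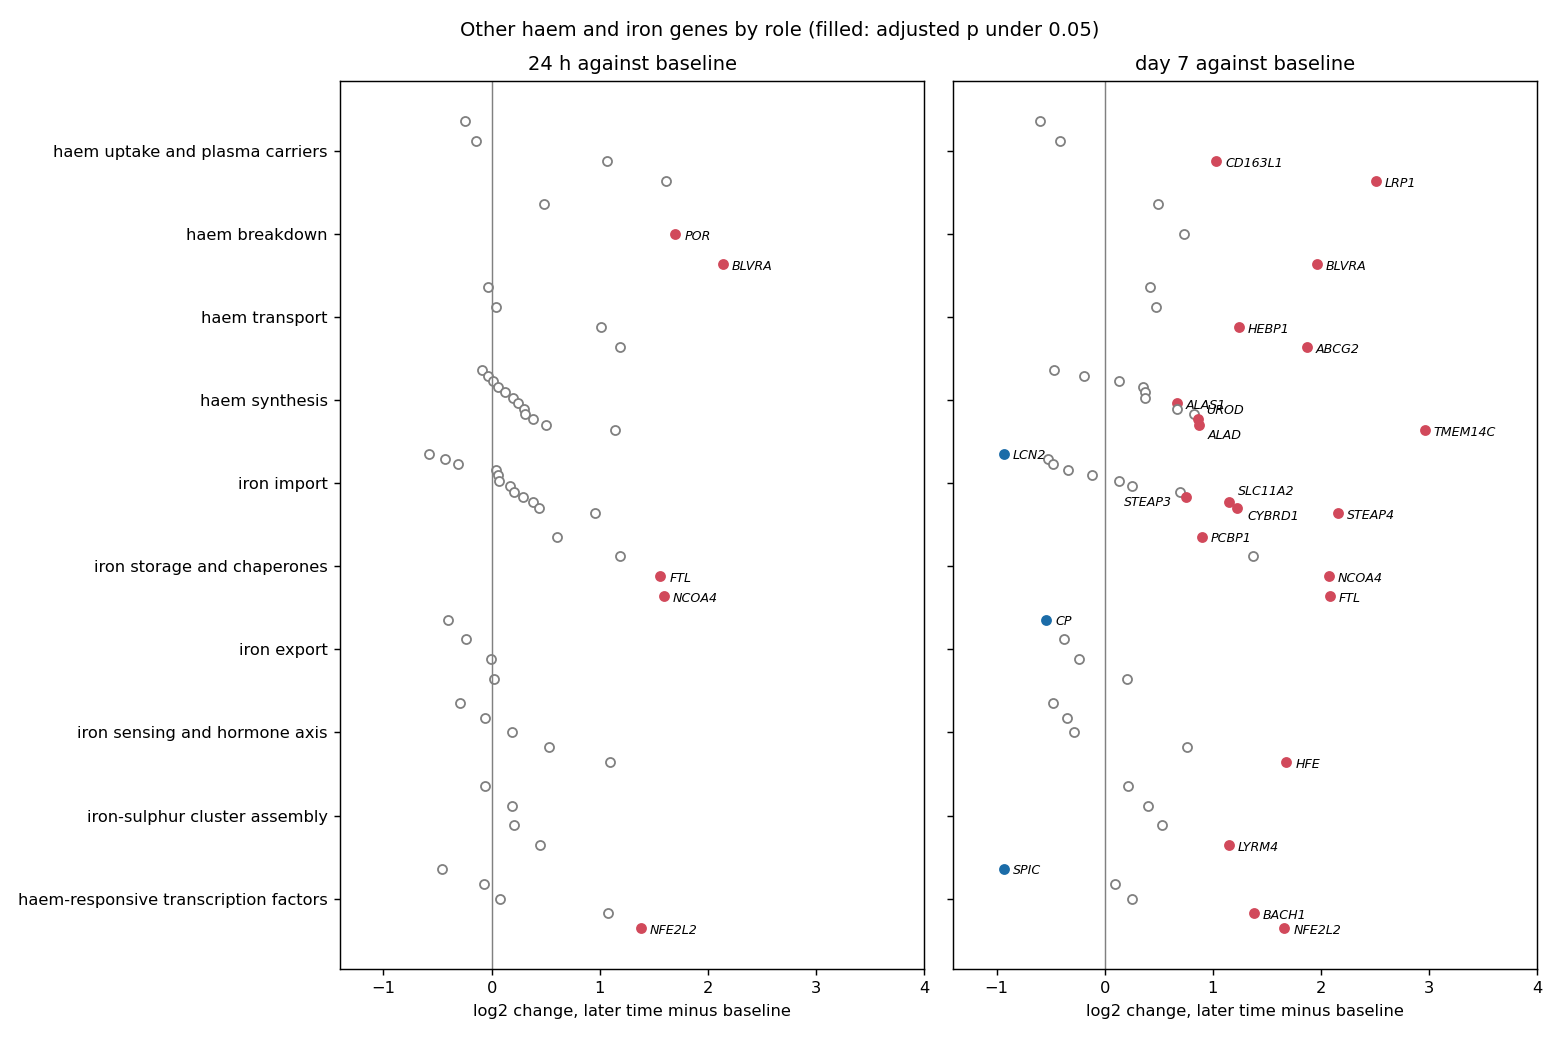
Log2 change (horizontal axis, later time minus baseline) of the 57 other haem and iron genes by role, at 24 h (left panel) and on day 7 (right panel); filled points passed the test (red higher, blue lower). At 24 h the filled points are POR, BLVRA, FTL, NCOA4 and NFE2L2; on day 7 there are 20 higher and 3 lower, and the iron exporters have no filled point to the right of 0.

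Markers of the cells that joint fluid can hold were read on the same arrays. Of 16 monocyte or macrophage markers (21 listed, CD163 not among them) 1 rose at 24 h, MERTK, and 9 rose on day 7. The shares of all genes called higher were 0.72% and 18%. MSR1, TIMD4 and MRC1 had the largest day 7 changes (3.37, 3.33 and 3.17). The median change of the 16 markers was 0.61 at 24 h and 1.81 on day 7. Of these markers 14 are in the brightest class of probe sets, whose median change was 0.35 and 0.51. Their summed linear level, the sum of the values taken out of log2, ran from 940.1 to 3419 at baseline, from 830.7 to 5566.2 at 24 h and from 2098.5 to 8520.0 on day 7. In horses 1 and 3 the mean change of these markers at 24 h was -0.49 and -0.06, while CD163 was higher by 3.53 and 4.23 and HMOX1 by 0.92 and 1.67. In horses 2, 4, 5 and 6 the markers changed by 1.67, 0.42, 1.09 and 1.86, CD163 by 3.87, 5.36, 5.19 and 6.47, and HMOX1 by 3.05, 3.87, 3.80 and 5.59. CD163 and HMOX1 are among the 5 largest rises and were chosen with that known, which puts them above the mean of a list by choice. The list also holds genes with little change, such as C1QC (0.07 at 24 h and -0.01 on day 7). The part that cell numbers play in the changes of the 10 genes was not tested.

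**Figure D4:**
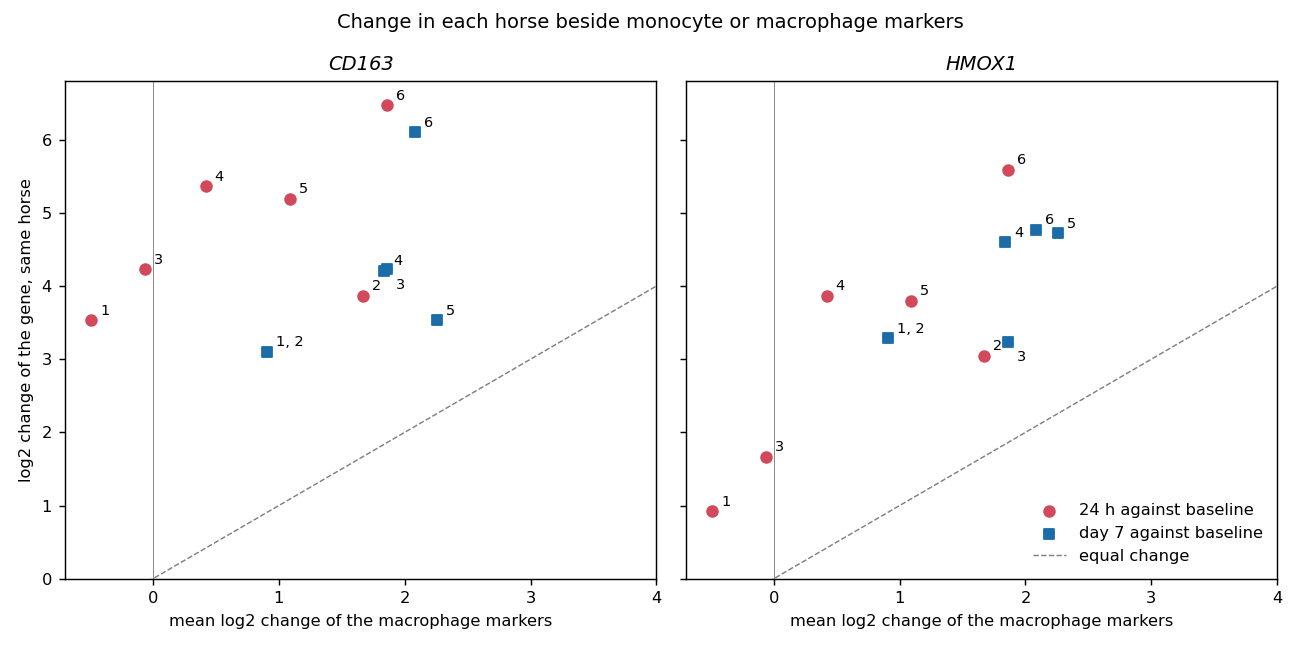
Log2 change of CD163 (left) and HMOX1 (right) in each horse (vertical axis) against the mean log2 change of 16 monocyte or macrophage markers in the same horse (horizontal axis), at 24 h (circles) and on day 7 (squares, with 1 square for the array of horses 1 and 2); numbers are horses and the dashed line is equal change. At 24 h horses 1 and 3 lie left of 0. All points lie above the line, from which nothing is read, because both genes were chosen with their large rises known.

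Of 7 red blood cell markers measured (15 listed), 0 rose and 0 fell at 24 h, and 0 rose and 1 fell on day 7, against 0.72% and 0.126% of all genes at 24 h and 18% and 8.43% on day 7. Their median change was -0.10 at 24 h and -0.37 on day 7; 6 of the 7 are in the second dimmest class of probe sets, whose median change was -0.115 and -0.30. Their highest value on any array was 4.83. Their summed linear level ran from 90.8 to 114.7 at baseline, from 76.0 to 126.7 at 24 h and from 57.2 to 95.4 on day 7. HBB, the beta globin gene, changed by -0.47 ± 0.34 at 24 h (limma adjusted p = 0.464) and by -0.70 ± 0.36 on day 7 (adjusted p = 0.144). Of 8 neutrophil markers 0 passed at 24 h and 1 fell on day 7, with a summed level of 156.6 to 490.8 at baseline, 171.9 to 2595.3 at 24 h and 106.3 to 197.5 on day 7. Their changes ran from -0.43 to 2.58 at 24 h (median 0.31) and from -1.75 to -0.03 on day 7 (median -0.36). The highest neutrophil sum was that of horse 3 at 24 h, which also had the lowest macrophage marker sum of that time, 830.7. The same array had the lowest ACO1, SLC11A1, BLVRB, SLC48A1 and TFRC at 24 h. No marker of T cells (10 measured), B or plasma cells (7), synovial fibroblasts (10), chondrocytes (9) or endothelial cells (7) rose at either time. On day 7 those lists had 3, 2, 1, 1 and 1 members lower, against 8.43% of all genes.

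Likeness to CD163 and HMOX1 was taken as the root mean square difference between profiles over the 17 arrays, each profile centred on its own mean, so a smaller number means a closer course in log2 units. Closest to CD163 were GPNMB (0.844), HMOX1 (0.935), LGALS3 (1.06), CTSB (1.10) and MERTK (1.19), beside a root mean square of 2.35 for CD163 about its own mean. Closest to HMOX1 were SLC7A8 (0.553), LGALS3 (0.621), CTSB (0.627), CREG1 (0.682) and PLD3 (0.741), with 2.05 for HMOX1 itself, and CD163 came 15th. GPNMB and LGALS3 encode a glycoprotein and a galectin of macrophages, CTSB and PLD3 lysosomal enzymes, and SLC7A8 an amino acid transporter. None of the 10 genes other than HMOX1 was among these. The arrays share horses and spread, and the profiles include the step from baseline, so the distances are descriptions of these arrays.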

How the data were processed

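The authors deposited log2 expression values per probe set for 18 arrays; per the submitters' processing notes, the tools were Transcriptome Analysis Console 3.0, Affymetrix Expression Console and RMA, with no role or order given. Per the labels' protocols, RNA came from 200 µl of fluid. The 10 genes and the lists were chosen with earlier results of these data known. A linear model of time (R 4.3.3, limma 3.58.1, two-sided moderated tests) was fitted on all 30559 probe sets and 17 arrays, with Benjamini-Hochberg adjustment over all of them and a threshold of 0.05. The horse was a fixed block because the titles name the same animals at each time; the shared day 7 array counted in equal parts for horses 1 and 2, and for the remaining one when either was left out. Deviations from the time means correlated at a median of -0.023 over 18 pairs of arrays of the same horse and -0.0037 over 78 pairs of different horses. The fitted changes can differ from differences of group means.

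Gene names come from the platform's annotation, which gave 1 symbol for 16789 probe sets; a gene with several is shown by the one with the highest mean. Named beside the 10 genes are up to 3 called genes per role list with the smallest day 7 p, 12 genes whatever their values (of which FTH1 was not matched), 3 macrophage markers with the largest day 7 change, and the 5 genes nearest to CD163 and HMOX1. SLC11A2 and CYBRD1, of the iron import list, are named because they complete the day 7 calls. C1QB, C1QC, HBB and MERTK were named after their values were seen. The number of arrays limits precision. The fit was tested on simulated data. Figures used matplotlib 3.10.9 in Python 3.11.15.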

Additional observations from a re-analysis of the deposited data

Results flagged for a closer look

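In each gene and time, the highest and lowest arrays were set against Dixon's 95% critical value for their distance from the rest. TFRC in horse 2 at 24 h, at 5.84, stood above the other 24 h arrays, which lay between 3.97 and 4.65. ACO1 in horse 3 at baseline, at 3.63, stood below the other baseline arrays, which lay between 4.53 and 4.76. These are 2 of 30 gene and time groups, where chance flags about 1 in 20, or 1.5 of 30. The 24 h call of ACO1 was lost in 22 of 32 alternatives, without horse 3 as without horse 2, 4, 5 or 6.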

How the results depend on the processing

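Counts of calls were recomputed under 32 alternatives. Fits on the arrays of the 2 times alone called 1 of the 10 genes and 0 of the other 57 at 24 h, and 2 of all probe sets. With the array SD as a covariate the counts were 1 and 0 at 24 h, and 0 and 0 on day 7. Over all probe sets that fit called 1 at 24 h and 0 on day 7. Quantile normalization gave 4 and 12 on day 7, and 3 of the 57 at 24 h, as did median centring and a variance trend with robust estimation. With 1 horse or array left out, chosen after seeing the data for arrays other than horse 2 at 24 h, the 10 genes gave 1 to 4 calls at 24 h and 4 to 8 on day 7, and the other genes 0 to 12 and 9 to 28. For day 7 against 24 h, the other genes gave 0 to 1; the 1 call came without horse 2 or its 24 h array. The fit without the horse block gave 3 and 5 calls at 24 h and 8 and 25 on day 7, and 0 for day 7 against 24 h. Without the block ACO1 lost and SLC11A1 gained its call at 24 h, and on day 7 none of the 10 genes changed its call.

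Some changes turned sign with the array SD as a covariate. At 24 h these were SLC48A1 (-0.66 ± 0.72, SE), TFRC (-0.50 ± 0.45), IREB2 (-0.43 ± 0.27), TMEM14C (-1.19), ALAD (-0.02), STEAP4 (-0.21), PCBP1 (-0.04), LYRM4 (-0.20), HMOX2 (-0.00) and HAMP (0.27). On day 7 they were SLC48A1 (-1.31 ± 1.03, SE), TFRC (-0.33 ± 0.65), IREB2 (-0.35 ± 0.38), TMEM14C (-1.06), ALAD (-0.02), PCBP1 (-0.21), HMOX2 (-0.10), SLC40A1 (-0.04) and HAMP (0.21). FECH at 24 h was 0.15 after quantile normalization and 0.01 after median centring, and SLC40A1 0.06 and 0.03. With 1 horse or array left out, FECH at 24 h ran from -0.11 to 0.06, SLC40A1 from -0.13 to 0.08 and HAMP from -0.29 to 0.16. The median change of all probe sets on day 7 was -0.24, or -0.06 after quantile normalization and -0.09 after median centring. The causes were not tested. The spread of arrays grew with time after the injection, so the covariate and time are confounded, at 24 h in part. Between baseline (1.22 to 1.50) and day 7 (1.53 to 1.82) the array SDs did not overlap. The day 7 values with the covariate thus compare times at a spread they do not share. The number of arrays limits all of these values.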
